A study of Mus musculus with 4 samples.

Results

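Genes of cholesterol and fatty acid synthesis were followed in mouse 2-cell embryos that developed with or without dimethyl sulfoxide (DMSO), a solvent and cryoprotectant. The set was defined by gene symbol and held 29 genes, from the first enzymes of the mevalonate pathway to the desaturases and elongases of fatty acids. Of these, 27 were found by Ensembl identifier among the 30049 genes of the table, and the remaining 2, Fdps and Insig1, were not analysed here. Wild type zygotes of the background labelled BDF1*BDF1 F2 were collected 18 h after hCG, the hormone given to the females to make them ovulate. Culture lasted 24 h in KSOM, which is a simple medium made for early embryos. The control group received no DMSO and the treated group 2% DMSO, and 50 embryos that had reached the 2-cell stage were collected for each group. RNA was sequenced in 2 libraries per group, named replicates 1 and 2. Nothing says whether the replicates were separate collections, so the p-values measure the spread between these libraries, which may be technical. Levels are given as TPM, which states a gene's transcripts as a share of the library after scaling by transcript length. A lower TPM of a gene can therefore come from less of its RNA in each embryo, from fewer embryos carrying it or from more of other RNA, and these cannot be told apart.

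Cholesterol is built in the cytosol and endoplasmic reticulum. Acetyl-CoA is turned by way of mevalonate into isoprene units, these are joined to squalene, and squalene is closed to lanosterol, whose side groups and double bonds are then trimmed and moved until cholesterol is reached. Fatty acids start from the same acetyl-CoA, which Acly makes from citrate, Acaca carboxylates and Fasn strings into palmitate. Elongases of the Elovl family lengthen the chain and desaturases of the Scd family put in a double bond. Both branches are driven by the SREBP transcription factors, encoded by Srebf1 and Srebf2. Their precursors are held in the endoplasmic reticulum by Insig proteins when sterols are plentiful, and are escorted by Scap to the Golgi, where proteases release the active part, when sterols are scarce. The 2-cell embryo of the mouse still carries RNA from the oocyte while its own genome is being switched on.

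In the sterol branch the enzymes Idi1, Msmo1 and Sc5d were 3.51, 3.04 and 3.33 times as abundant in DMSO-treated as in control embryos, whereas the sterol isomerase Ebp was 5.10 times less abundant. In the fatty acid branch Fasn, Scd1 and Elovl6 were lower by 2.70, 2.99 and 6.84 times. A gene is named as called here where limma, run on log2(TPM + 1), gave it a Benjamini-Hochberg adjusted p-value below 0.05. The adjustment covered the 12038 genes whose mean over the 4 libraries reached 1 TPM, among them 22 of the 27 members. These 7 genes were the members called. Calls in either direction made up 20.5% of all genes tested, calls higher in DMSO 6.42% and calls lower 14.1%. The 7 of 22 members called, 3 higher and 4 lower, are 31.8% of those tested, and whether this departs from the share over all genes was not tested. The shares of calls that were higher among all genes depended on the scaling between libraries, being 31.3% on the deposited values, 42.9% with median-ratio scaling and 49.0% with quantile normalization. Median-ratio scaling called 7.88% of genes higher and 10.5% lower, and quantile normalization 8.94% higher and 9.31% lower. With either scaling the 7 members were still called, in the same directions. With the replicate number as a block 42.6% of genes were called, 17.9% higher and 24.8% lower, and 9 of the 22 members. The groups did not overlap in 16 of the 22 members, 9 higher and 7 lower, against 69.8%, 31.1% and 38.7% of all genes tested. The plot of changes in pathway order shows the calls of both directions side by side in the sterol branch and in one direction in the fatty acid branch.

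**Figure D1:**
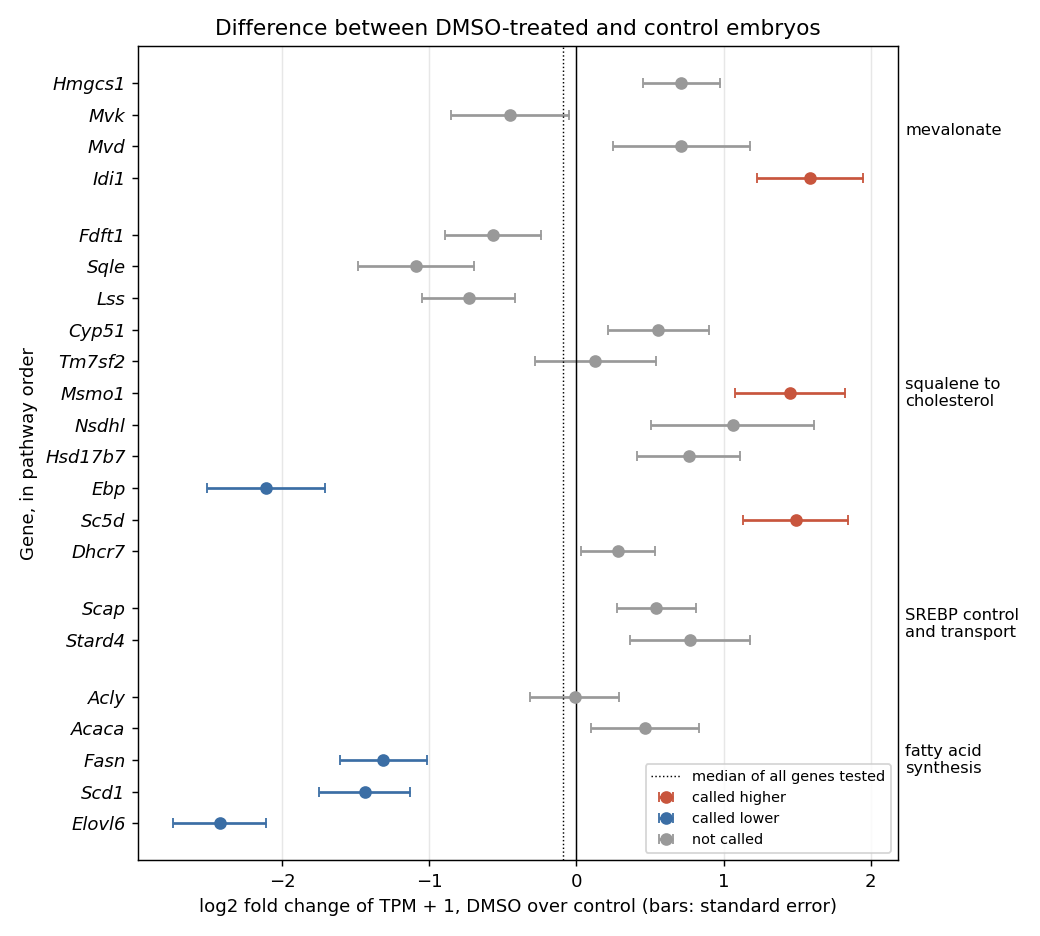
Points give the log2 fold change of TPM + 1 of the 22 members tested, DMSO-treated over control embryos, and bars its standard error from limma (2 libraries per group). Genes run from top to bottom in pathway order, and Idi1, Msmo1 and Sc5d stand at or above 1.45 while Ebp, Fasn, Scd1 and Elovl6 stand at or below -1.31.

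The median log2 fold change was 0.37 over the 22 members tested, beside -0.09 over all genes tested, and it was 0.11 without control replicate 2 and 0.21 without DMSO replicate 1. By branch it was 0.71 for 4 mevalonate genes, 0.28 for 11 genes from squalene to cholesterol, 0.66 for the 2 tested genes of SREBP control and transport, and -1.31 for 5 fatty acid genes. Without control replicate 2 the first 3 of these were 0.41, 0.12 and 0.42. The value from squalene to cholesterol was 0.45 without control replicate 1 and 0.51 without DMSO replicate 2, and that of the fatty acid genes stayed between -1.38 and -1.18 without any one library. The mevalonate value was 1.15 over the 2 genes left by a filter at a mean of 5 TPM. No test was made of these medians, because the members had been chosen with results of these libraries known. All 7 called members kept their direction when any one library was left out, as the plot of the called genes under other settings shows. None of the 7 was called by limma without control replicate 1, without control replicate 2 or without DMSO replicate 1, and their adjusted p-values then lay between 0.0827 and 0.236. Over all genes 3745, 2602 and 3078 then had an unadjusted p-value under 0.05, and 0 were called. Without DMSO replicate 2 the call was lost for Sc5d (limma adjusted p = 0.0564) and Fasn (limma adjusted p = 0.0591). An exact permutation test of 2 libraries against 2 cannot go below p = 0.33.

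**Figure D2:**
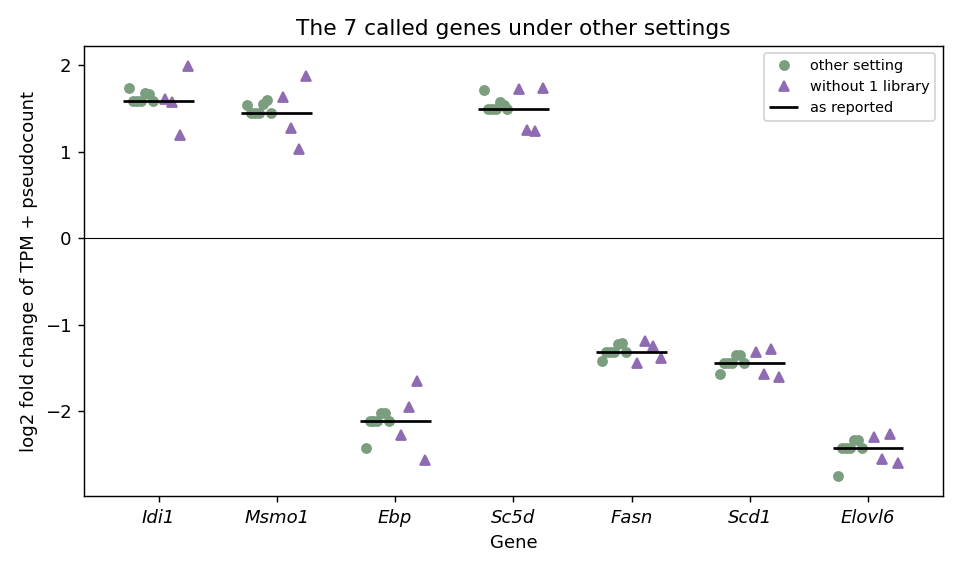
Black lines give the log2 fold change of the 7 called members as reported, circles the value under 7 other settings (pseudocount, filters, variance trend, scalings, replicate block) and triangles the value with 1 library left out. No point crosses 0.

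The promoters of these genes were set beside the changes, since genes of this pathway are known to share binding sites for SREBPs and for NF-Y, a factor that binds the CCAAT box and works together with SREBPs. RefSeq promoters on GRCm38.p6, from 250 bases before to 50 after the transcript start, were found for 22 of the 27 members. The letters CCAAT on either strand stood in 19 of these 22 members (86.4%), against 41.1% of the 27025 genes with a promoter. The 3 without them were Acaca, Elovl6 and Scap. The GC box GGGCGG stood in 17 (77.3%) against 38.2%, and the E-box CACGTG in 5 (22.7%) against 8.09%. The sterol element TCACNCCAC stood in 1 member, Hmgcs1, against 1.44% of genes. None of these motifs contains the letters of another. The 27025 genes were not limited to those found in these libraries, and a gene counted where any of its promoters matched. A match of letters is a description and not a bound site, and the start used in 2-cell embryos may differ from the RefSeq start. CCAAT occurred in the promoters of all 3 members called higher, and of those called lower in Ebp and Fasn but not in Elovl6, so that it did not part the directions. Scd1 was not among the promoters. The bases before the start are shown for Sc5d, Ebp, Fasn and Elovl6 as called members, and for Hmgcs1 because it holds the sterol element, written 5′ to 3′ with CCAAT or its reverse complement ATTGG in capitals. Each run is 250 bases long except that of Elovl6, which ends after 219 bases where GENCODE M21 has its first exon. The windows of Idi1 and Msmo1 are not printed, since 105 and 214 of their 250 bases lie in an exon of that annotation.
Sc5d promoter, chr9:42264301-42264550, minus strand: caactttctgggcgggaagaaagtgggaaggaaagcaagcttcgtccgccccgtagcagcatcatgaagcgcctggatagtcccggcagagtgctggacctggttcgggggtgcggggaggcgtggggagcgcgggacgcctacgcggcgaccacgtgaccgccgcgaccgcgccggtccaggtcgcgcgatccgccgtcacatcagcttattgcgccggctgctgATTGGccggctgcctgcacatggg
Hmgcs1 promoter, chr13:119690101-119690350, plus strand: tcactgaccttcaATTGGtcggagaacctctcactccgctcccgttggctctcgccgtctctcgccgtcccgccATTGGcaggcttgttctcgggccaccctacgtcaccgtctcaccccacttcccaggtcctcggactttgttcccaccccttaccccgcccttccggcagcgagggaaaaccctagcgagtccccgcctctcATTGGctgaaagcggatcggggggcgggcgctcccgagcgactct
Ebp promoter, chrX:8193513-8193762, minus strand: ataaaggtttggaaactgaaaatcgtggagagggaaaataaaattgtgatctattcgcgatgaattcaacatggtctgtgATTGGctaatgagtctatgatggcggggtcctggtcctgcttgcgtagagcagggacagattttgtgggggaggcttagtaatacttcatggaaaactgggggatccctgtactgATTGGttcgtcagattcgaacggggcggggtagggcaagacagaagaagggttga
Fasn promoter, chr11:120824548-120824797, minus strand: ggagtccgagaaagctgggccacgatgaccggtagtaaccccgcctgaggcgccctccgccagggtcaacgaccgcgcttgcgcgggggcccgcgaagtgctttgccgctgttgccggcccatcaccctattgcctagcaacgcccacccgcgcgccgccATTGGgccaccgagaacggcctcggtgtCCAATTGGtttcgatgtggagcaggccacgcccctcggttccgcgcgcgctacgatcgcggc
Elovl6 promoter, chr3:129532136-129532354, plus strand: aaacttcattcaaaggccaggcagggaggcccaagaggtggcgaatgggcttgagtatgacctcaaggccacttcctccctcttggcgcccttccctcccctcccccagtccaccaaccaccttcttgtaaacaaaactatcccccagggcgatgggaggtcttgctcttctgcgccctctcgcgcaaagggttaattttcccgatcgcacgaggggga
The capitals begin 24 bases before the RefSeq start in Sc5d, and 55 and 170 bases before it in Ebp. Fasn holds one at 90 bases and a palindrome in which a match on each strand overlaps, at 62 and 59 bases. In Hmgcs1 they lie at 45, 176 and 237 bases, and the sterol element reads TCACCCCAC at 137 bases on the same strand as the gene. In the windows not printed the letters begin 14 and 45 bases before the RefSeq start of Idi1, and 55, 96 and 160 before that of Msmo1.

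Of the mevalonate genes, Idi1 (ENSMUSG00000058258, chr13:8885501-8892451 of GRCm38), the isomerase that interconverts the isoprene units, measured 5.43 TPM in control replicate 1, 5.30 in control replicate 2, 24.2 in DMSO replicate 1 and 13.5 in DMSO replicate 2. Both treated libraries lay above both controls. The control mean was 5.36 ± 0.0974 TPM (SD, n = 2) and the DMSO mean 18.9 ± 7.56 TPM (SD, n = 2). On the log2 scale Idi1 rose by 1.59 with a standard error (SE) of 0.36 (limma adjusted p = 0.0326). To judge which reads could be ambiguous, transcripts were cut into words of 31 bases, and 27.1% of the words of Idi1 are found in other genes too, most of them in the processed pseudogene Gm13502. That pseudogene had 3.83 and 0.534 TPM without DMSO and 4.998 and 6.64 TPM with it, so the split of reads between it and Idi1 is uncertain. Hmgcs1, the cytosolic synthase that opens the pathway, was the most abundant mevalonate gene. It was at 60.8 and 57.4 TPM in the controls and at 109.5 and 86.9 TPM with DMSO, without overlap, and it was not called (log2 fold change 0.71, SE 0.26, limma adjusted p = 0.0925). It was called after quantile normalization (limma adjusted p = 0.0433). Mvk, the mevalonate kinase, was at 1.82, 2.97, 2.10 and 0.941 TPM in the order of libraries used above. Mvd, the decarboxylase that forms the first isoprene unit, was at 2.64, 0.682, 3.79 and 2.43 TPM. The groups overlapped in both. Pmvk, the phosphomevalonate kinase, had 0.263 TPM in DMSO replicate 1 and was listed at 0 in the other libraries, and was not tested.

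The first enzymes of the sterol part had lower values in the treated libraries, without reaching the threshold. Squalene synthase Fdft1 was at 110.2 and 76.4 TPM in the controls and at 76.1 and 49.9 TPM with DMSO, so that the groups met almost at one value. Of its words 31.9% occur in other genes, 17.6% in Ctsb, a protease gene whose end overlaps that of Fdft1 on the other strand, and 14.3% in the pseudogene Gm6781. Ctsb was at 80.5 and 82.6 TPM in the controls and at 30.0 and 37.3 TPM with DMSO, and as the counting is not stated to use strand, the reads of the overlap cannot be told apart. Squalene epoxidase Sqle was at 1.98 and 3.77 TPM against 1.03 and 0.545 TPM (log2 fold change -1.09, SE 0.39, limma adjusted p = 0.0891). Lanosterol synthase Lss was at 11.6 and 8.90 TPM against 6.16 and 5.33 TPM (log2 fold change -0.73, SE 0.32, limma adjusted p = 0.133). In all 3 genes both treated libraries lay below both controls.

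Among the enzymes that trim lanosterol, Msmo1 (ENSMUSG00000031604, chr8:64718139-64733792), the methylsterol monooxygenase, was at 9.77 and 7.37 TPM in the controls and at 33.7 and 18.4 TPM with DMSO. The groups did not overlap, and DMSO replicate 1 was the higher of the treated libraries, as it was for Idi1 and Sc5d. The mean rose 3.04-fold (log2 fold change 1.45, SE 0.38, limma adjusted p = 0.0414), and without a variance trend limma's adjusted p-value was 0.0501. Its partners in removing methyl groups had higher values with DMSO without passing the test. Nsdhl, a sterol dehydrogenase, was at 2.18 and 0.668 TPM against 6.67 and 2.02 TPM, with overlap. Nsdhl was called only with the replicate block (limma adjusted p = 0.0329). Hsd17b7, a sterol ketone reductase, was at 0.926 and 1.68 TPM against 2.84 and 2.87 TPM, without overlap (limma adjusted p = 0.153). Cyp51, the lanosterol demethylase, was at 5.45 and 3.49 TPM against 7.53 and 6.33 TPM, also without overlap (limma adjusted p = 0.259). Tm7sf2, a sterol reductase, was at 1.50, 0.860, 2.08 and 0.806 TPM, and its direction changed when a library was left out.

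The next pair of enzymes moved in opposite directions. Ebp (ENSMUSG00000031168, chrX:8185329-8193512), the isomerase that shifts a double bond of the sterol ring, was at 14.5 and 18.3 TPM in the controls and at 1.93 and 4.50 TPM with DMSO. On the log2 scale it fell by 2.11 with a standard error of 0.40 (limma adjusted p = 0.0239), and 2.25% of all genes tested had a lower log2 fold change. None of its words occur in other genes. Sc5d (ENSMUSG00000032018, chr9:42251595-42264256), the desaturase that acts on the product of Ebp, was at 4.27 and 2.79 TPM in the controls and at 13.9 and 9.56 TPM with DMSO. Its mean rose 3.33-fold (log2 fold change 1.49, SE 0.36, limma adjusted p = 0.0355). Ebp was thus 3.38 and 6.58 times as abundant as Sc5d in the control libraries, and Sc5d was 7.22 and 2.13 times as abundant as Ebp in the DMSO libraries.

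Dhcr7, the reductase of the last step to cholesterol, held most of the RNA of the whole set. It was at 1010.3 and 804 TPM in the controls and at 1144 and 1049.7 TPM with DMSO, ranking 83rd, 131st, 79th and 83rd among the genes of the libraries. That was 74.0%, 73.3%, 74.8% and 78.4% of the summed TPM of the 27 members. Its treated libraries lay above both controls, and the difference was not called (log2 fold change 0.28, SE 0.25, limma adjusted p = 0.425). Of its words 2.76% occur in other genes. The summed TPM of all members was 1365 and 1098 in the controls and 1529 and 1338 with DMSO, with overlap, and without Dhcr7 it was 354, 293, 385 and 289. The plot of levels by library shows Dhcr7 apart from all other members and the separate positions of the 7 called genes.

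**Figure D3:**
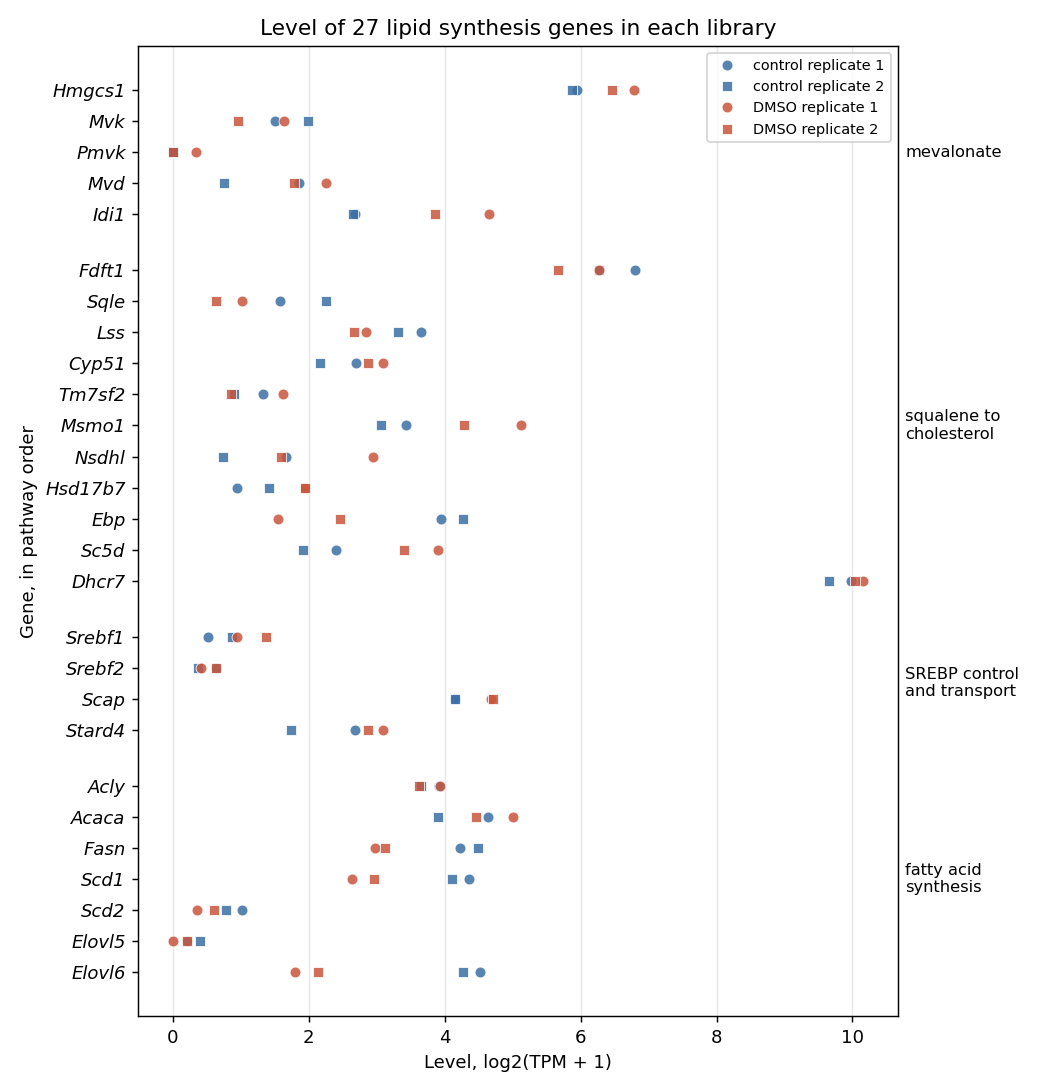
Each point is the level of a member in 1 library, as log2(TPM + 1), for the 27 members in pathway order (circles, replicate 1, squares, replicate 2, blue, control, red, DMSO). Dhcr7 lies near 10 in every library, and both DMSO points of Elovl6, Scd1, Fasn and Ebp lie to the left of both control points.

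No member in the group of SREBP control and sterol transport was called by limma. Of the 2 tested 0 had an unadjusted limma p-value under 0.05, against 4835 of all 12038 genes tested. Srebf1 was at 0.438 and 0.823 TPM in the controls and at 0.921 and 1.57 TPM with DMSO, and Srebf2 at 0.556, 0.296, 0.337 and 0.551 TPM. Both were below the filter and were not tested. Scap was far more abundant than either, at 16.8 TPM in both controls and at 24.6 and 25.2 TPM with DMSO. Its replicates were close and its groups apart, and the difference was not called (log2 fold change 0.54, SE 0.27, limma adjusted p = 0.177). Stard4, a carrier of sterols between membranes, was at 5.40 and 2.32 TPM against 7.54 and 6.28 TPM, without overlap (limma adjusted p = 0.199).

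In the fatty acid branch 3 of the 5 genes tested were called, all lower, beside 14.1% of all genes called lower, and the first enzymes were not among them. Acly, which makes cytosolic acetyl-CoA, was at 14.1 and 11.6 TPM in the controls and at 14.2 and 11.3 TPM with DMSO (log2 fold change -0.01, SE 0.30, limma adjusted p = 0.981), and its sign changed with the scaling. Acaca, the carboxylase that commits acetyl-CoA to fatty acids, was at 23.8, 13.9, 31.03 and 21.1 TPM, with overlap. Of its words 33.5% occur elsewhere, most of them in the pseudogene Gm5182, so that its value is uncertain. Fasn (ENSMUSG00000025153, chr11:120805846-120824547), fatty acid synthase, was at 17.8 and 21.5 TPM in the controls and at 6.88 and 7.67 TPM with DMSO. Its mean fell 2.70-fold (log2 fold change -1.31, SE 0.29, limma adjusted p = 0.0317), and none of its words are shared. Elovl6 (ENSMUSG00000041220, chr3:129532355-129638495), which lengthens palmitate, was at 21.8 and 18.2 TPM against 2.47 and 3.39 TPM. Its mean was 20.03 ± 2.56 TPM (SD, n = 2) in the controls and 2.93 ± 0.650 TPM (SD, n = 2) with DMSO. On the log2 scale it fell by 2.42 with a standard error of 0.32 (limma adjusted p = 0.0181). This was the member with the largest change, and 1.17% of all genes tested had a lower value. Scd1 (ENSMUSG00000037071, chr19:44394455-44407879), a desaturase that makes oleate and palmitoleate, was at 19.6 and 16.2 TPM against 5.20 and 6.75 TPM. Its mean fell 2.99-fold (log2 fold change -1.44, SE 0.31, limma adjusted p = 0.0294). Together Fasn, Scd1 and Elovl6 summed to 59.2 and 55.9 TPM in the controls and to 14.6 and 17.8 TPM with DMSO. The other 2 members were below the filter. Scd2 was at 1.03 and 0.712 TPM against 0.278 and 0.524 TPM, and Elovl5, which lengthens polyunsaturated chains, stood between 0 and 0.315 TPM.

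A further desaturase, Scd3, and a further elongase, Elovl7, had higher values with DMSO. Scd3, a desaturase of the same cluster as Scd1 on chromosome 19, was at 18.1 and 14.5 TPM in the controls and at 28.4 and 31.3 TPM with DMSO (log2 fold change 0.84, SE 0.28, limma adjusted p = 0.0764). Scd3 stood at 0.925 and 0.898 times the level of Scd1 in the control libraries and at 5.45 and 4.64 times in the DMSO libraries. Of the words of Scd1 5.84% occur in Scd3 and of those of Scd3 8.12% in Scd1. Elovl7, an elongase, was at 2.81 and 1.78 TPM against 11.3 and 5.33 TPM (log2 fold change 1.44, SE 0.43, limma adjusted p = 0.0566). Elovl6 stood at 7.77 and 10.3 times the level of Elovl7 in the controls and at 0.218 and 0.636 times with DMSO. Neither was called on the deposited values. Scd3 was called under quantile normalization (limma adjusted p = 0.0473), and Elovl7 without DMSO replicate 2 (limma adjusted p = 0.0488). Blocking on the replicate number called both, Scd3 at a limma adjusted p of 0.0303 and Elovl7 at 0.0103. Both were picked after their values had been seen, and the difference between the paired genes was not tested. Of the other Scd and Elovl genes outside the set, Elovl1 was tested and not called, at 0 and 0.260 TPM in the controls and 5.37 and 0.483 TPM with DMSO, though it was called without DMSO replicate 2 (limma adjusted p = 0.0305). Elovl3 had lower values with DMSO, 1.02 and 0.371 TPM against 1.76 and 0.815 TPM, and was below the filter, as were Scd4, Elovl2 and Elovl4. The plot of desaturase and elongase pairs shows the crossing of both pairs.

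**Figure D4:**
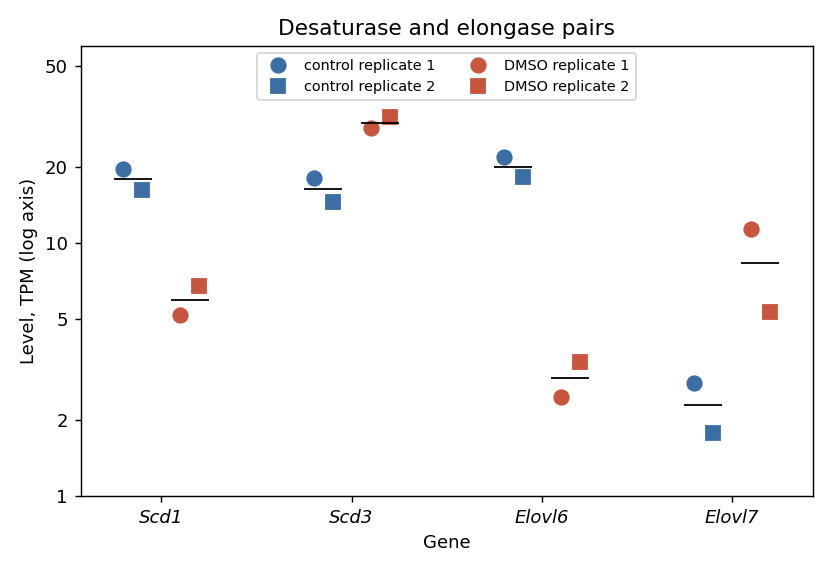
Levels of Scd1, Scd3, Elovl6 and Elovl7 in TPM on a log axis, 1 point per library (circles, replicate 1, squares, replicate 2, blue, control, red, DMSO), with the group mean as a line. Scd1 and Elovl6 fall between the groups, and Scd3 and Elovl7 lie higher in both DMSO libraries.

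Of 83 other genes of sterol and fatty acid metabolism, listed by function, 57 were tested and 10 called, 2 higher and 8 lower, or 17.5% against 20.5% of all genes. With the replicate block 8 were called higher and 15 lower, beside 17.9% and 24.8% of all genes. The 10 genes called without the block kept their direction when any one library was left out. Their calls, like those of the members, were lost without control replicate 1, without control replicate 2 and without DMSO replicate 1. Of 9 further enzymes of sterol and isoprenoid synthesis 7 were tested and 0 called by limma. Of these 7, 1 had an unadjusted limma p-value under 0.05, against 4835 of all 12038 genes tested. All 7 had log2 fold changes below 0, with a median of -0.27, though that of Acat1, a thiolase, was 0.08 after quantile normalization, and that of Fntb, a subunit of a farnesyl transferase, was 0.20 without control replicate 1. Of 8 further genes of SREBP control 7 were tested and 2 called. Mbtps2, a protease that releases active SREBPs, fell from 122.4 and 70.2 TPM to 38.8 and 34.8 TPM (log2 fold change -1.31, SE 0.33, limma adjusted p = 0.0401). Of its words 28.0% occur in Yy2, which lies inside it and was at 95.7 and 57.7 TPM against 32.7 and 33.2 TPM, so that the value of Mbtps2 is uncertain. Its call was lost under quantile normalization (limma adjusted p = 0.0598), without a variance trend (limma adjusted p = 0.0546) and when any one library was left out (limma adjusted p from 0.0907 to 0.179). Of 12 genes of sterol uptake, storage and export 7 were tested and 1 called. This was Nr1h3, the sterol-sensing receptor LXR alpha, which fell from 11.95 and 17.6 TPM to 3.22 and 3.85 TPM (log2 fold change -1.78, limma adjusted p = 0.0238).

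The counts of calls in the next lists stand beside 20.5% of all genes called, 6.42% higher and 14.1% lower. Of 22 further genes of fatty acid synthesis, elongation and desaturation 13 were tested and 1 called. Hacd3, a dehydratase of the elongation cycle, fell from 60.04 and 62.3 TPM to 16.5 and 29.1 TPM (log2 fold change -1.44, limma adjusted p = 0.0334). Its call was lost under quantile normalization (limma adjusted p = 0.0599). With the replicate block Me1, Mcat, Scd3, Elovl7 and Tecr of this list were called higher, and Mecr and Hacd3 lower. Of all genes 17.9% were then called higher and 24.8% lower. Of 16 genes of fatty acid activation and storage 11 were tested and 4 called. Acsl4, which activates polyunsaturated fatty acids, fell from 60.9 and 74.5 TPM to 12.002 and 24.7 TPM (log2 fold change -1.90, limma adjusted p = 0.0259). Agpat2, an acyltransferase of glycerolipid synthesis, fell from 12.4 and 14.5 TPM to 4.64 and 3.94 TPM (log2 fold change -1.45, limma adjusted p = 0.0285). Plin3, a coat protein of lipid droplets, fell from 16.3 and 16.7 TPM to 4.82 and 4.35 TPM (log2 fold change -1.64, limma adjusted p = 0.0221). Dgat1, which completes triglycerides, rose from 14.4 and 12.5 TPM to 27.9 and 33.0 TPM (log2 fold change 1.12, limma adjusted p = 0.039). Of 16 genes of fatty acid oxidation 12 were tested and 2 called. These were Cpt2, the inner carnitine palmitoyltransferase of mitochondria, from 19.7 and 16.8 TPM to 4.35 and 6.96 TPM, and Etfa, a flavoprotein subunit that carries electrons from oxidation, from 59.2 and 67.2 TPM to 26.3 and 25.8 TPM. Both fell (log2 fold changes -1.56 and -1.24, limma adjusted p = 0.0294 and 0.0279). The plot of the lists shows calls on both sides of 0 in sterol synthesis and in fatty acid storage.

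**Figure D5:**
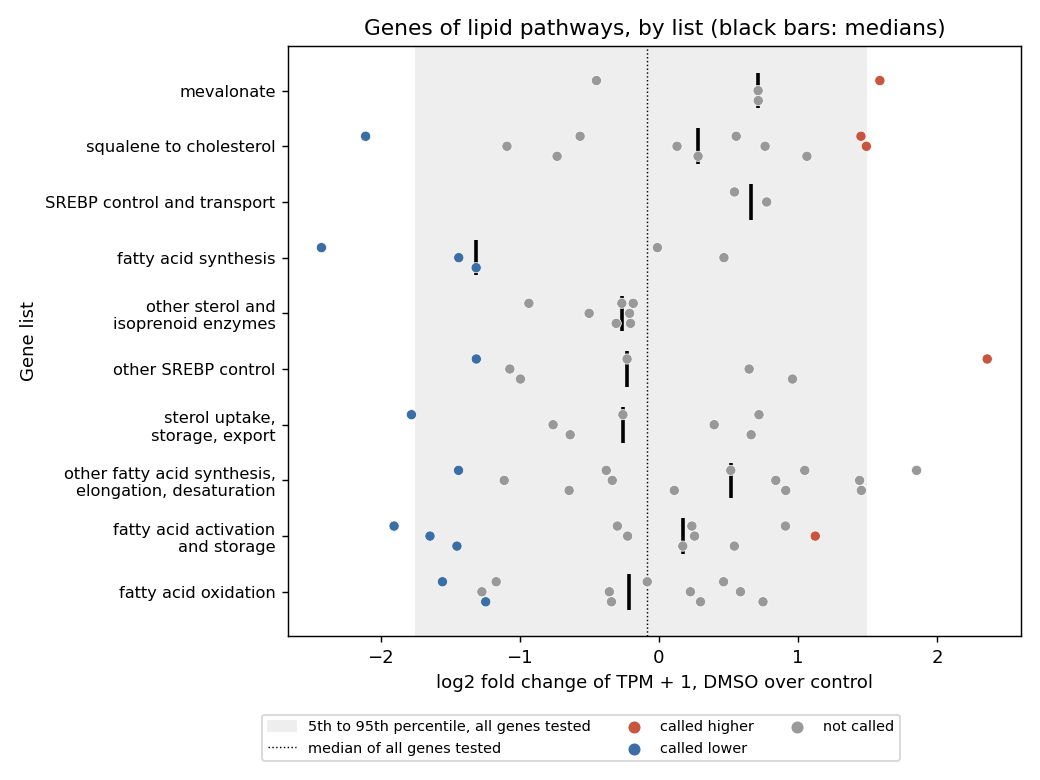
Each point is the log2 fold change of TPM + 1 of a tested gene, DMSO-treated over control embryos, in the 4 branches of the set and 6 further lists, with black bars for list medians and the range from the 5th to the 95th percentile of all genes tested (-1.75 to 1.49) shaded. Elovl6 lies farthest to the left.

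Some other features of the libraries moved with the treatment as well. The 13 markers of oocyte and 2-cell RNA summed to 825 and 526 TPM in the controls and to 2433 and 1611 TPM with DMSO, Tcstv3 being the most abundant in each. Of them 12 were tested, and Bmp15, Tcstv3, Zfp352 and Usp17lc were called higher and 0 lower by limma, against 6.42% and 14.1% of all genes. Of the 12, 3 had log2 fold changes below 0, Zp3, Zscan4d and Padi6. Nlrp5 was listed at 0 in control replicate 1 and DMSO replicate 1, and Padi6 in DMSO replicate 1. The 12 markers of cumulus and granulosa cells summed to 3.21, 1.97, 3.19 and 3.10 TPM, with Amh and Inhba listed at 0 in all 4 libraries and Fshr in 3, and none reached the filter. The 8 markers of later embryonic lineages summed to 23.0, 17.2, 26.8 and 25.3 TPM, with Nanog the most abundant. Of the 5 tested 0 were called by limma. An unadjusted limma p-value under 0.05 was found for 2 of the 5, against 4835 of all 12038 genes tested. Transcripts of the mitochondrial genome made up 10.8% and 12.4% of the summed TPM without DMSO and 15.3% and 21.7% with it, and the 20 most abundant genes 22.1% and 23.6% against 29.4% and 35.1%. The part of these shifts in the changes of lipid genes was not tested, beyond the scalings named above, under which the 7 members were still called. Of the 10 other pathway genes called, 10 were still called with median-ratio scaling and 8 with quantile normalization.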

How the data were processed

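RNA of 2-cell embryos was measured in 4 libraries, 2 per group, grouped by the sample titles. The authors made cDNA with a SMARTer low-input kit, assigned reads to Ensembl transcripts of GRCm38 (mm10) with kallisto (version not given in the sources used here), summed transcripts per gene with tximport and deposited TPM values for 30049 genes. The values of these genes summed to 768174 and 780527 TPM in the controls and to 772487 and 799166 TPM with DMSO. Shares of summed TPM and ranks are therefore of the genes in the table and not of a whole library. TPM values keep no depth, so no counting error or detection limit was derived from them, and no count test was run. Symbols and gene coordinates were taken by identifier from GENCODE M21 (GRCm38), which named 29668 genes.

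The test was limma (3.58.1, R 4.3.3; lmFit, then eBayes with a trend) applied to log2(TPM + 1) of genes averaging 1 TPM or more over the libraries (no replicate block, Benjamini-Hochberg adjustment over all genes tested, calls at 0.05). Fold changes on this scale understate those of low genes, and fold differences of means are of TPM. Ambiguous reads were judged from 31-base words that a gene's transcripts have in common with those of any other gene, in either orientation. Sequences came from RefSeq promoters of GRCm38.p6. Only the limma step was tested on simulated data. All members were named, and of the other pathway lists the called genes, except that single items of these lists are not reported here, while Scd3 and Elovl7 were added later. The members and lists were chosen with earlier results of these data known. Alternatives were a pseudocount of 0.1, no filter, a filter at 5 TPM, no variance trend, median-ratio and quantile scaling, the replicate block and leaving out each library. Figures were drawn with matplotlib 3.10.9 in Python 3.11.15.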

Additional observations from a re-analysis of the deposited data

How the results depend on the processing

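The 7 called members kept their direction under every alternative run. Without a filter on low values limma called 0 of 22257 genes, higher or lower, members and other pathway genes included, although 5368 had an unadjusted p-value under 0.05, and the 7 members had adjusted p-values from 0.102 to 0.132. Leaving out a library gave 0 to 607 genes higher and 0 to 1276 lower over all genes, 0 to 2 members higher and 0 to 3 lower, and 0 to 5 other pathway genes higher and 0 to 6 lower. In these fits the group with 1 library was assumed to vary like the other. The median log2 fold change of the members lay between 0.11 and 0.52, and the mevalonate median was 1.15 with a filter at 5 TPM, under which 6 of the 22 members were not tested. Quantile normalization gave 1121 genes lower. The log2 fold change of Acly reversed to 0.083 with median-ratio scaling and 0.11 with quantile normalization. Without a library it ran from -0.17 to 0.14, that of Tm7sf2 from -0.25 to 0.51 and that of Slc25a20, a carnitine carrier, from -0.023 to 0.95. The cause of these changes was not tested.

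Both groups have replicates 1 and 2, but nothing says what such a number stands for, and there are 2 pairs. Same-numbered libraries deviated together across genes (r = 0.35, genes not being independent). With the replicate block, which leaves 1 residual degree of freedom, 2151 genes were higher and 2981 lower, or 42.6% of those tested. Of the members 5 were then called higher, Hmgcs1 (limma adjusted p = 0.0273) and Nsdhl (limma adjusted p = 0.0329) being added, and 4 lower, and of the other pathway genes 8 higher and 15 lower.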

Other observations

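Slc25a20, the carnitine carrier of the inner mitochondrial membrane, was the most abundant gene of the fatty acid oxidation list, at 418 and 356 TPM in the controls and at 747 and 380 TPM with DMSO. DMSO replicate 2 lay among the controls. Tecr, the reductase of the elongation cycle, was at 1.84 and 0.653 TPM in the controls and at 14.3 and 2.99 TPM with DMSO. Both were picked after their values had been seen, and neither was called on the deposited values. Tecr was called with the replicate block (limma adjusted p = 0.0103) and without DMSO replicate 2 (limma adjusted p = 0.0352).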
